A study of Mus musculus with 240 samples.

Results

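Myo7a encodes an unconventional myosin, a motor protein that walks on actin filaments. It is best known from the inner ear, where it holds the stereocilia of hair cells in place, and from the pigment epithelium of the retina, where it moves melanosomes and phagosomes. Mutations of the gene cause Usher syndrome type 1B in humans and the deafness and circling of shaker-1 mice. MYO7A works with a set of Usher proteins (adhesion molecules and scaffolds).

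The gene was taken by name from the count table (Ensembl identifier ENSMUSG00000030761) as 1 of 14785 genes that the study kept for testing, out of 55414 genes counted. It was chosen from its measured levels in these same libraries, which were known to differ between strains. Its levels by strain and region are therefore given as a description without a test. Sex, the variation among mice of 1 strain, and the other genes named below were not used in that choice.

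The animals were 48 mice of the 8 inbred strains that founded the Collaborative Cross, none of which had been given ethanol. B6 (C57BL/6J) and PWK (PWK/PhJ) are the strains that the study classed as high in ethanol preference. The 6 low preference strains were AJ (A/J), CAST (CAST/EiJ), NOD (NOD/LtJ in the labels), NZO (NZO/HILtJ), S129 (129S1/SvImJ) and WSB (WSB/EiJ). Each strain gave 3 females and 3 males, and each mouse gave its central nucleus of the amygdala (CeA), nucleus accumbens (NAcc) and prelimbic cortex (PrL). The sources differ on age, with 8 weeks in the series description and 10 to 12 weeks in the methods. An inbred strain stands for 1 genotype, so that a difference between strains cannot be tied to any single locus by these data.

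The libraries were sequenced on 3 trays of 48, each with 2 libraries of every strain and region, so that the 3 regions of a mouse were on 3 different trays, and the libraries used were those of the deposited log2 table (48 of the CeA, 47 of the NAcc and 48 of the PrL). Totals ran from 14942820 to 33951616 counts per library. Values are counts per 1000000 counts on the tested genes (CPM), after scaling the libraries by the TMM method, which sets aside the genes that differ most. At this depth Myo7a had 374 to 2003 counts in libraries of B6 and PWK and 15 to 440 in those of the other strains. The summed CPM of 8 striatal projection neuron markers had its highest median in the NAcc (4930) and that of 5 pallial glutamatergic neuron markers in the PrL (2590). The 5 central amygdala markers had medians of 439 in the CeA and 457 in the NAcc, so that their sum did not set the CeA apart from the NAcc. Its members differed in direction. Mean CPM in the CeA was above that in the NAcc for Prkcd (47.4 against 21.9) and Sst (310 against 202). It was below for Dlk1 (58.6 against 191) and Crh (4.87 against 7.68), and alike for Nts (25.5 against 24.8). Pallial markers ranged from 19.5 to 2430 CPM between CeA libraries and striatal markers from 384 to 10800 CPM. In the NAcc the ranges were 2.3 to 1350 CPM and 764 to 10300 CPM, and striatal markers in the PrL ran from 222 to 2550 CPM. The highest pallial and lowest striatal sums of the NAcc were in libraries of B6 or PWK. So was the highest striatal sum of the PrL. The part of this mixture in the levels of Myo7a and of the other genes named below was not tested. In bulk tissue, fewer cells of a type and less RNA per cell cannot be told apart.

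Myo7a lies on the minus strand of chromosome 7. Of 13 transcripts in the GENCODE vM21 annotation, 6 are protein coding, and RefSeq places starts in 2 windows that lie 10245 bases apart, one at the outer end of the gene and one inside it. The deposited counts are per gene, so transcripts from these starts were not separated. The sequence before the outermost annotated start is shown because it adjoins the gene whose level differs, and it is that of the reference strain (B6). Whether it drives Myo7a in these tissues was not tested. It covers chr7:98119525-98119743 of GRCm38.p6, minus strand, from RefSeq, in a build other than that of the counts (GRCm39), and capitals mark a GC box.
Myo7a upstream: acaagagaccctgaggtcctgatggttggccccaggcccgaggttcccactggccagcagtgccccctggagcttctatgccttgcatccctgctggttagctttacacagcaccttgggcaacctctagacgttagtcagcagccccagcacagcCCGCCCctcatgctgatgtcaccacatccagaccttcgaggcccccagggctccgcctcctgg

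These 219 bases held 62.6% G and C and 5 CpG sites, against medians of 52.1% and 5 over 32851 windows of the same length in the table. The GC box (GGGCGG or its reverse complement CCGCCC) occurred once, and 28.3% of all windows held it. Neither a TATA box (TATAAA or TTTATA, in 9.92% of windows) nor a CCAAT box (CCAAT or ATTGG, in 30.9%) was found on either strand. The alleles of the other 7 strains were not examined here.

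Myo7a fell into a high and a low level across the strains, and the split was between B6 and PWK on one side and the remaining 6 strains on the other. The median over libraries of B6 and PWK was 25.1 CPM in the CeA, 27.4 CPM for the NAcc and 24.7 CPM for the PrL, and that of the low preference strains 2.06, 1.90 and 1.98 CPM. In every region the lowest library of B6 or PWK was above the highest library of any low preference strain, although in the CeA only just, at 23.4 against 20.3 CPM.

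The PrL showed the split most plainly. The 6 B6 mice had 22.6, 23.6, 24.4, 27.4, 29.1 and 30.9 CPM in the PrL (mean 26.3 ± 3.32, SD, n = 6). The PWK mice had 22.0, 24.2, 24.6, 24.9, 27.3 and 28.6 CPM there (25.2 ± 2.33, SD, n = 6). The ranges of B6 and PWK overlapped from 22.6 to 28.6 CPM, with the B6 mice at 29.1 and 30.9 CPM above every PWK mouse. No mouse of either strain came near those that follow. NZO had the highest mean among the low preference strains in the PrL, at 2.94 ± 1.53 CPM (SD, n = 6), with a highest mouse of 5.88 CPM. AJ had 2.35 ± 0.373, S129 2.11 ± 0.728, NOD 1.96 ± 0.540, WSB 1.75 ± 1.46 and CAST 1.67 ± 0.478 CPM (SD, n = 6 each). Each strain in this order overlapped the next in range except PWK and NZO, where the lowest PWK mouse had 3.74 times the CPM of the highest NZO mouse.

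In the NAcc, the 5 B6 mice had 23.5, 25.3, 25.3, 25.6 and 27.4 CPM (25.4 ± 1.39, SD, n = 5). PWK was somewhat above them, with 25.4, 29.1, 29.5, 29.9, 34.3 and 37.4 CPM (30.9 ± 4.23, SD, n = 6). The low preference strains had means from 2.05 CPM (S129 and CAST) to 3.11 CPM (WSB). Only 1 of their 36 NAcc libraries exceeded 6 CPM, a WSB mouse with 9.70 CPM, whereas the other 5 WSB mice had 1.05 to 2.97 CPM. The authors left out the sixth B6 library of this region, and it was not apart for Myo7a, with 26.7 CPM in its first run and 25.5 in its second.

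The CeA was the region where mice of 1 strain differed most. Among B6 mice 4 libraries had 23.4, 24.0, 24.8 and 25.1 CPM, and the remaining 2 had 54.2 and 71.6 CPM (mean 37.2 ± 20.7, SD, n = 6). PWK had 23.4, 24.3, 25.1, 25.3, 31.0 and 51.4 CPM (30.1 ± 10.8, SD, n = 6). S129 was divided in the same way at a lower level, with 1.02, 1.29 and 1.82 CPM in 3 mice and 11.6, 12.9 and 17.1 CPM in the other 3. NOD had 1.87, 2.31, 2.34, 5.24, 15.0 and 20.3 CPM, and NZO had 5 mice from 1.36 to 2.45 CPM and 1 at 14.7 CPM. CAST (1.56 to 2.25 CPM), AJ (0.611 to 3.11 CPM) and WSB (1.30 to 5.08 CPM) had no mouse above 6 CPM. The order of strain means in the CeA (B6, PWK, NOD, S129, NZO, WSB, CAST, AJ) thus rested on a few libraries. By medians the order was PWK, B6, S129, WSB and NOD, with NZO, CAST and AJ at the end.

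**Figure D1:**
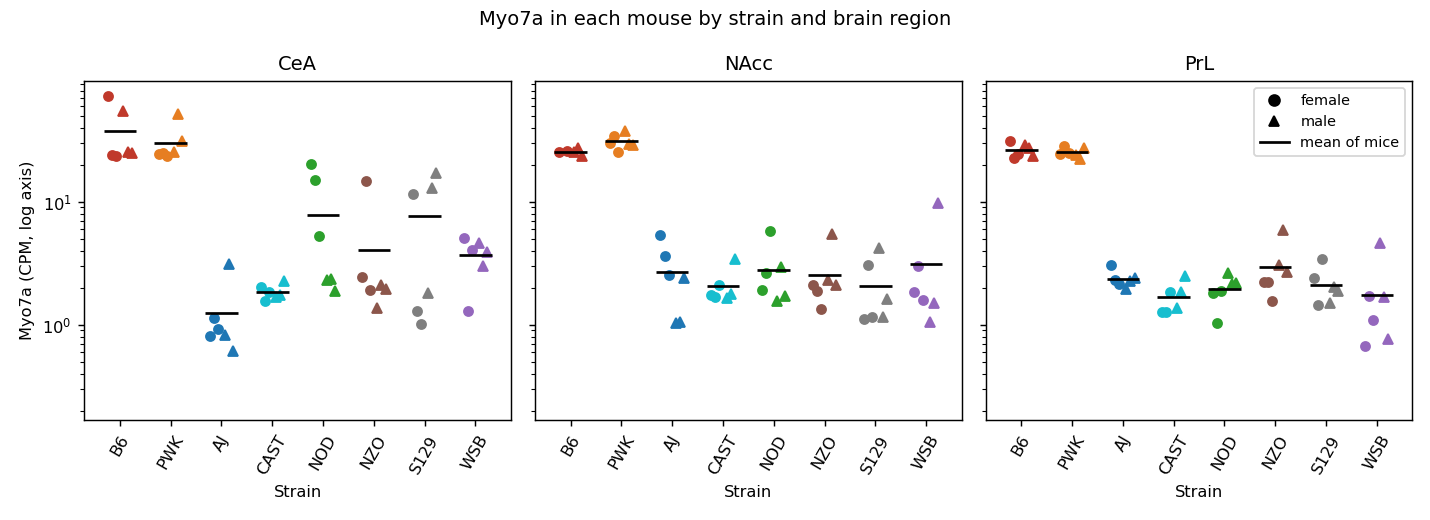
Myo7a in CPM on a log axis for each mouse (circles females, triangles males) of the 8 strains in the CeA, NAcc and PrL, with a bar at the mean of each group. B6 and PWK lie at 22.0 CPM or more in all 3 panels, and every mouse of the other strains lies at 20.3 CPM or less.

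On the log2 scale of the linear model (strain, sex and tray, fitted in each region), B6 was above the average of the low preference strains by 3.57 (SE 0.400) in the CeA, 3.57 (SE 0.205) in the NAcc and 3.72 (SE 0.136) in the PrL. These are folds of 11.9, 11.8 and 13.2. For PWK the differences were 3.39 (SE 0.402), 3.81 (SE 0.195) and 3.66 (SE 0.137), which are folds of 10.5, 14.1 and 12.6. The difference between B6 and PWK was small beside its error in the CeA (0.19, SE 0.423) and PrL (0.07, SE 0.124), and in the NAcc B6 was lower by a log2 difference of -0.25 (SE 0.207). The 12 pairs of a high with a low preference strain ranged from 2.45 (PWK minus NOD, SE 0.532) to 4.97 (B6 minus AJ, SE 0.793) in the CeA. The corresponding ranges were 3.39 (B6 minus NOD, SE 0.306) to 4.12 (PWK minus S129, SE 0.332) in the NAcc and 3.14 (PWK minus NZO, SE 0.201) to 4.19 (B6 minus WSB, SE 0.250) in the PrL.

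Within the low preference strains the differences were smaller and often within their error. The median size of the 15 pairwise log2 differences was 0.87 in the CeA, 0.19 for the NAcc and 0.45 for the PrL. The largest was AJ minus NOD in the CeA, at -2.34 (SE 0.830). In the NAcc no pair went beyond 0.48 (NOD minus S129, SE 0.385), and in the PrL NZO exceeded WSB by 0.99 (SE 0.282).

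The split was present on each tray. Tray means of B6 minus the low preference strains on the log2 scale were 4.19, 2.75 and 3.90 in the CeA for trays 1 to 3, 3.70, 3.24 and 3.69 in the NAcc (with 1 B6 library on tray 2), and 3.93, 3.65 and 3.61 in the PrL. For PWK they were 3.60, 3.28 and 3.35 in the CeA, 3.88, 3.54 and 4.02 in the NAcc and 3.96, 3.56 and 3.51 in the PrL. Repeat sequencing gave close values for the high strains. For the 24 twice-sequenced libraries of B6 and PWK the second run differed from the first by a median of 0.02 on the log2 scale (SD 0.118), at median counts of 742 and 389. In the 72 libraries of the low preference strains the median was 0.00 and the SD 0.393, at median counts of 61.5 and 29.5, where counts were lower and the runs lay farther apart.

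Sex was the first factor that the choice of the gene had not used. The male minus female difference on the log2 scale was 0.06 (SE 0.273, 95% interval -0.49 to 0.62, limma adjusted p = 0.973) in the CeA. In the NAcc it was 0.04 (SE 0.142, interval -0.25 to 0.33, limma adjusted p = 0.978), and in the PrL 0.10 (SE 0.095, interval -0.09 to 0.30, limma adjusted p = 0.808). No sex difference was detected, and the interval in the CeA was the widest of the 3. Few genes differed by sex at all, with 0.135% of tested genes called in the CeA, 0.0812% for the NAcc and 0.0947% for the PrL. The unweighted female mean of log2 CPM in the CeA (2.38) was above that of males (2.26), against the sign of the fit.

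The regions could be compared within mice. Over all strains, Myo7a in the CeA minus that in the NAcc of the same mouse averaged 0.25 ± 1.46 on the log2 scale (SD, n = 47) and was positive in 21 mice and negative in 26. The CeA minus PrL difference was 0.42 ± 1.39 (SD, n = 48), positive in 27 mice, and NAcc minus PrL was 0.15 ± 0.900 (SD, n = 47), positive in 27 mice. The regional differences were thus smaller than their spread and far below the strain difference. For B6 and PWK alone the same differences were 0.03 ± 0.502, 0.27 ± 0.521 and 0.16 ± 0.229. A single model over all libraries gave log2 differences of 0.23 (SE 0.102), 0.37 (SE 0.101) and 0.13 (SE 0.103), and with the mouse as a replicate block 0.23 (SE 0.101), 0.37 (SE 0.100) and 0.13 (SE 0.102). By strain, CeA minus PrL averaged -1.14 ± 0.867 in AJ (5 of 6 mice negative), 1.41 ± 1.84 in NOD (4 of 6 positive), 1.25 ± 1.31 in WSB (5 of 6 positive) and 1.08 ± 1.92 in S129 (4 of 6 positive; SD, n = 6 each), and it lay between 0.01 and 0.35 in the other 4 strains.

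Mice with more Myo7a than their strain's average in 1 region were not detectably those with more in another. With strain means removed, Pearson's r between CeA and NAcc was -0.206 and Spearman's rho -0.211 over 47 mice (permutation p = 0.241 and 0.218 within strains, two-sided, adjusted over 3 pairs of regions 0.484 and 0.427). Between CeA and PrL r was -0.159 and rho -0.174 over 48 mice (permutation p = 0.323 and 0.285, adjusted 0.484 and 0.427). For NAcc and PrL r was -0.111 and rho 0.012 over 47 mice (permutation p = 0.615 and 0.943, adjusted 0.615 and 0.943). Without the 2 mice farthest from the median on the first axis r was -0.176, -0.135 and -0.001.

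Part of the variation within strains went with genes of the ventricle lining. The choroid plexus secretes cerebrospinal fluid and makes transthyretin (Ttr) in large amounts, and the ependyma is the ciliated sheet that lines the ventricles, marked by the transcription factor Foxj1. Ttr exceeded 500 CPM in 12 of 48 CeA libraries, at 770 to 8973 CPM, and was at most 186 CPM in the other 36 and at most 3.66 CPM in the NAcc and PrL. Those 12 libraries came from 6 strains, 8 females and 4 males, and all 3 trays (3, 5 and 4 libraries). All 6 CeA libraries of low preference strains with more than 10 CPM of Myo7a were among them, and so were the 2 highest of B6 and the highest of PWK.

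Per strain, the 4 B6 libraries without high Ttr had 29.2 to 39.9 CPM of the other 7 choroid plexus genes in sum, and the 2 with it had 601 and 908 CPM. PWK had 10.1 to 22.1 CPM of these genes in 5 libraries and 547 CPM in the sixth. In S129 the 3 libraries with Myo7a under 2 CPM had 10.1 to 46.9 CPM of choroid plexus genes, and the other 3 had 222 to 371 CPM. The slope of Myo7a on the summed choroid plexus genes was 5.38 CPM per 100 CPM in B6, 4.80 in PWK, 4.70 in S129, 3.64 in NOD and 6.39 in NZO. It was 0.99 in WSB, whose 2 libraries with high Ttr had 62.6 and 63.6 CPM of these genes, and -3.90 and -12.2 in AJ and CAST, which had no library with high Ttr and at most 48.8 and 11.5 CPM of these genes. In the 36 libraries with Ttr under the limit, Myo7a ran from 23.4 to 31.0 CPM in the 9 of B6 and PWK and from 0.611 to 4.64 CPM in the 27 of the low preference strains. In the 12 libraries with high Ttr it ran from 51.4 to 71.6 CPM in B6 and PWK and from 4.06 to 20.3 CPM in the low preference strains. As a ratio, the split between strains was therefore wider in the libraries with few choroid plexus transcripts. As a difference in CPM it was wider in those with high Ttr.

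Ependymal genes (Foxj1, Tmem212, Ccdc153 and Rarres2, as a mean of log2 CPM) went with Myo7a in the NAcc as well. There Ttr was at 0 in 23 of 47 libraries, Kcne2 in 26 and Kcnj13 in 27, but of the 8 choroid plexus genes Clic6 (mean 25.0 CPM), Kl (7.54 CPM) and Otx2 (1.81 CPM) were found in every library, and the sum of the list had a median of 38.0 CPM, against 39.1 in the CeA. The ependymal sum ran from 5.88 to 84.8 CPM in the NAcc. Over the 36 NAcc libraries of the low preference strains, with strain means removed, r was 0.937 and rho 0.919 (permutation p = 1e-05 each, the smallest that the permutations can give, adjusted 0.000293 over 88 correlations with 11 marker lists), and r was 0.932 without the 2 farthest libraries. In the 11 NAcc libraries of B6 and PWK r was 0.803 and rho 0.836 (permutation p = 0.012 and 0.00764, adjusted 0.0623 and 0.0649), and this rested on 2 libraries, since r was 0.338 without the 2 farthest. The CeA libraries fell into those with and those without high Ttr, so that the relation was taken within the second kind. There r was 0.754 and rho 0.651 in the 27 libraries of the low preference strains (permutation p = 0.00051 and 0.00204, adjusted 0.00561 and 0.0224), and r was 0.495 without the 2 farthest. In the 9 of B6 and PWK r was 0.834 and rho 0.517 (permutation p = 0.0329 and 0.167, adjusted 0.121 and 0.390), and this rested on 2 libraries, since r was -0.153 without them. In the PrL the relation was weaker in the low preference strains, with r = 0.602 and rho = 0.378 (n = 36, permutation p = 0.00839 and 0.0417, adjusted 0.0487 and 0.175), and r was 0.343 without the 2 farthest libraries. In B6 and PWK it had the opposite sign there, with r = -0.464 and rho = -0.406 (n = 12, permutation p = 0.141 and 0.188, adjusted 0.257 and 0.404). Of the other 10 lists outside the CeA, those with an adjusted p of r under 0.05 were choroid plexus in the NAcc of the low preference strains (r = 0.645, rho = 0.567, permutation, adjusted p = 0.0044 and 0.0155, r = 0.595 without the 2 farthest), astrocytes in their PrL (r = 0.539, rho = 0.419, permutation, adjusted p = 0.00841 and 0.0801, r = 0.490 without the 2 farthest) and pallial neurons in the NAcc of B6 and PWK (r = -0.762, rho = -0.673, permutation, adjusted p = 0.0274 and 0.128, r = -0.462 without the 2 farthest). In the CeA libraries without high Ttr, striatal neuron markers were the only other list past this limit, with r = -0.682 and rho = -0.557 in the low preference strains (n = 27, permutation, adjusted p = 0.0274 and 0.0789, r = -0.427 without the 2 farthest). Choroid plexus genes had r = 0.207 and rho = 0.027 in these 27 libraries (permutation, adjusted p = 0.418 and 0.914). Between CeA libraries with and without high Ttr, striatal markers summed to 384 to 1540 against 519 to 10800 CPM and microglial markers to 271 to 420 against 293 to 530 CPM. Astrocyte markers summed to 966 to 1910 against 1000 to 1650 CPM and oligodendrocyte markers to 1260 to 18500 against 1450 to 11000 CPM. The part of these cell types in the levels of Myo7a was not tested. These correlations were looked at after the pattern had been seen.

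The library with the most Myo7a of its strain was also the one with the most ependymal transcripts in 8 of 8 strains in the CeA, 6 of 8 in the NAcc and 2 of 8 in the PrL. The WSB mouse with 9.70 CPM of Myo7a in the NAcc had an ependymal sum of 82.9 CPM against 8.41 to 28.2 in the other WSB libraries. Of the cells in which Myo7a is best known, the hair cell markers Atoh1 and Pou4f3 were at 0 in 46 and 42 of 48 CeA libraries, while Otof (mean 104 CPM) and Slc17a8 (5.90 CPM), which neurons also express, were found in all 48, and the 6 pigment cell markers summed to at most 17.3 CPM in any library.

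**Figure D2:**
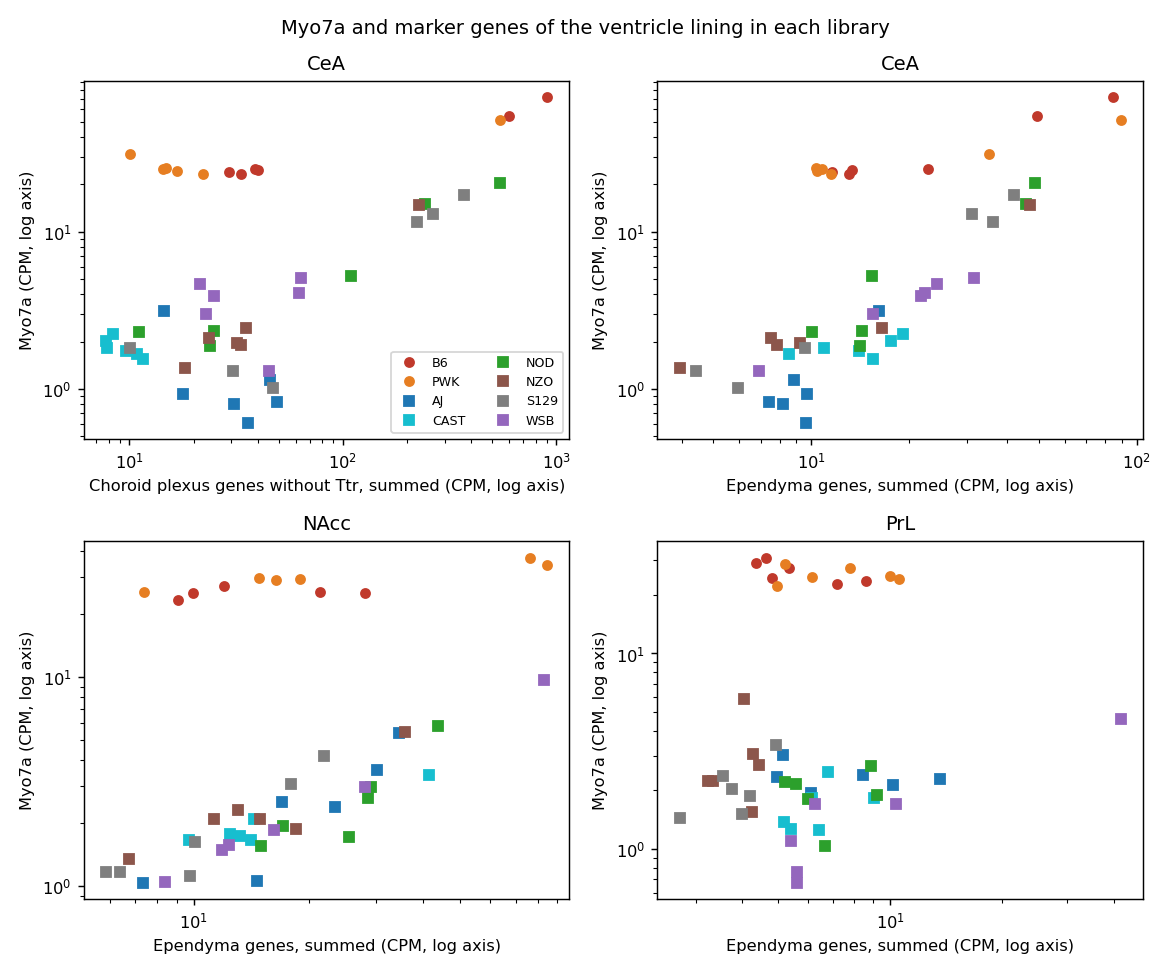
Myo7a of each library against the summed CPM of choroid plexus genes without Ttr (CeA) and of 4 ependymal genes (CeA, NAcc and PrL), on log axes, coloured by strain, with circles for B6 and PWK and squares for the low preference strains. In CeA libraries without high Ttr, Myo7a lies between 0.611 and 4.64 CPM in the low preference strains. In B6 and PWK it lies between 23.4 and 31.0 CPM in such libraries. Among those with high Ttr it reaches 20.3 CPM in the low preference strains and 71.6 CPM in B6.

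With the choroid plexus and ependymal scores as covariates, Myo7a of B6 exceeded that of the low preference strains by 3.00 on the log2 scale in the CeA, and Myo7a of PWK exceeded that of the same low preference strains by 3.13. In the 3 libraries of each strain with the lowest choroid plexus score, the differences in the CeA were 3.82 and 3.87. Both alternatives were added after seeing the data. Whether the strain difference lies in the tissue outside the ventricle lining was not tested.

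The proteins that MYO7A works with did not share its pattern. Of 19 listed partners, 12 were tested. In the CeA, 2 partners were higher and 3 lower in B6 than in the low preference strains, where 22.3% of all tested genes were higher and 18.8% lower, and the median of the list was -0.02 against 0.01 over all genes. In PWK 1 was higher and 1 lower, beside 20.1% and 19.1% of all genes. In the NAcc, 1 was higher and 4 lower in B6 (17.3% and 14.9% of all genes, list median -0.33 against 0.01) and 1 higher and 1 lower in PWK (20% and 18.7%). In the PrL, 2 were higher and 3 lower in B6 (18.2% and 19.3%) and 1 higher and 3 lower in PWK (23.9% and 23.2%). Most of these shares are of the order of the background. In B6 in the NAcc the list leaned lower, with 4 of 12 beside 14.9% of all genes, and this difference in shares was not tested. The part of mixed tissue in these calls was not tested either. No partner was called in 1 direction in all 3 regions for either strain.

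Cadherin 23 (Cdh23), which forms the upper part of the tip link between stereocilia, had the largest differences among partners and did not keep its direction. It was lower in B6 in the CeA, at 4.62 against 8.80 CPM (log2 difference -0.86, SE 0.308, limma adjusted p = 0.0228), and in the NAcc, at 1.89 against 4.56 CPM (-1.29, SE 0.510, limma adjusted p = 0.0459). In PWK it was higher in the NAcc, at 7.78 CPM (0.87, SE 0.300, limma adjusted p = 0.0214), and in the CeA it had a difference of -0.44 (SE 0.279, limma adjusted p = 0.212). Pdzd7, a scaffold of the ankle links of stereocilia, was higher in B6 in the PrL (5.03 against 3.87 CPM, log2 difference 0.48, SE 0.131, limma adjusted p = 0.00311). Adgrv1, the large adhesion receptor of those links, was lower in PWK in the PrL (1.20 against 2.10 CPM, -0.87, SE 0.231, limma adjusted p = 0.00216). None of these differences came near the size of that of Myo7a.

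Unconventional myosins other than Myo7a move vesicles, anchor membranes to actin or build actin protrusions. Of 24 listed, 18 were tested (Myo1a, Myo1g, Myo3a, Myo7b, Myo15 and Myo15b were not). The number higher and lower in B6 was 6 and 2 in the CeA (22.3% and 18.8% of all genes), 4 and 0 in the NAcc (17.3% and 14.9%) and 5 and 4 in the PrL (18.2% and 19.3%). In PWK it was 7 and 4 (20.1% and 19.1% of all genes), 3 and 1 (20% and 18.7%), and 6 and 3 (23.9% and 23.2%). List medians lay between 0.02 (B6, CeA) and 0.19 (PWK, CeA), against medians of all genes from -0.0031 to 0.0107.

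Myo3b, a myosin with a kinase domain found at the tips of actin protrusions, was higher in PWK in all 3 regions. Its log2 difference was 1.69 in the CeA (SE 0.365, limma adjusted p = 0.000275), 0.90 in the NAcc (SE 0.277, limma adjusted p = 0.0104) and 1.42 in the PrL (SE 0.276, limma adjusted p = 4.7e-05). Myo1f, a class I myosin of immune cells, was higher in PWK in all 3 as well (0.68, 0.39 and 0.62). Myo18b, a myosin of striated muscle, was lower in PWK in all 3, with log2 differences of -1.41, -1.50 and -0.96. In B6 no myosin was called in 1 direction in all 3 regions. The member with the largest difference in B6 was Myo1d in the CeA (43.2 against 18.6 CPM, log2 difference 1.25, SE 0.244, limma adjusted p = 7.17e-05), Myo1h in the NAcc (-1.32, SE 0.533, limma adjusted p = 0.0506, not called) and Myo5c in the PrL (-0.88, SE 0.187, limma adjusted p = 0.000157).

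**Figure D3:**
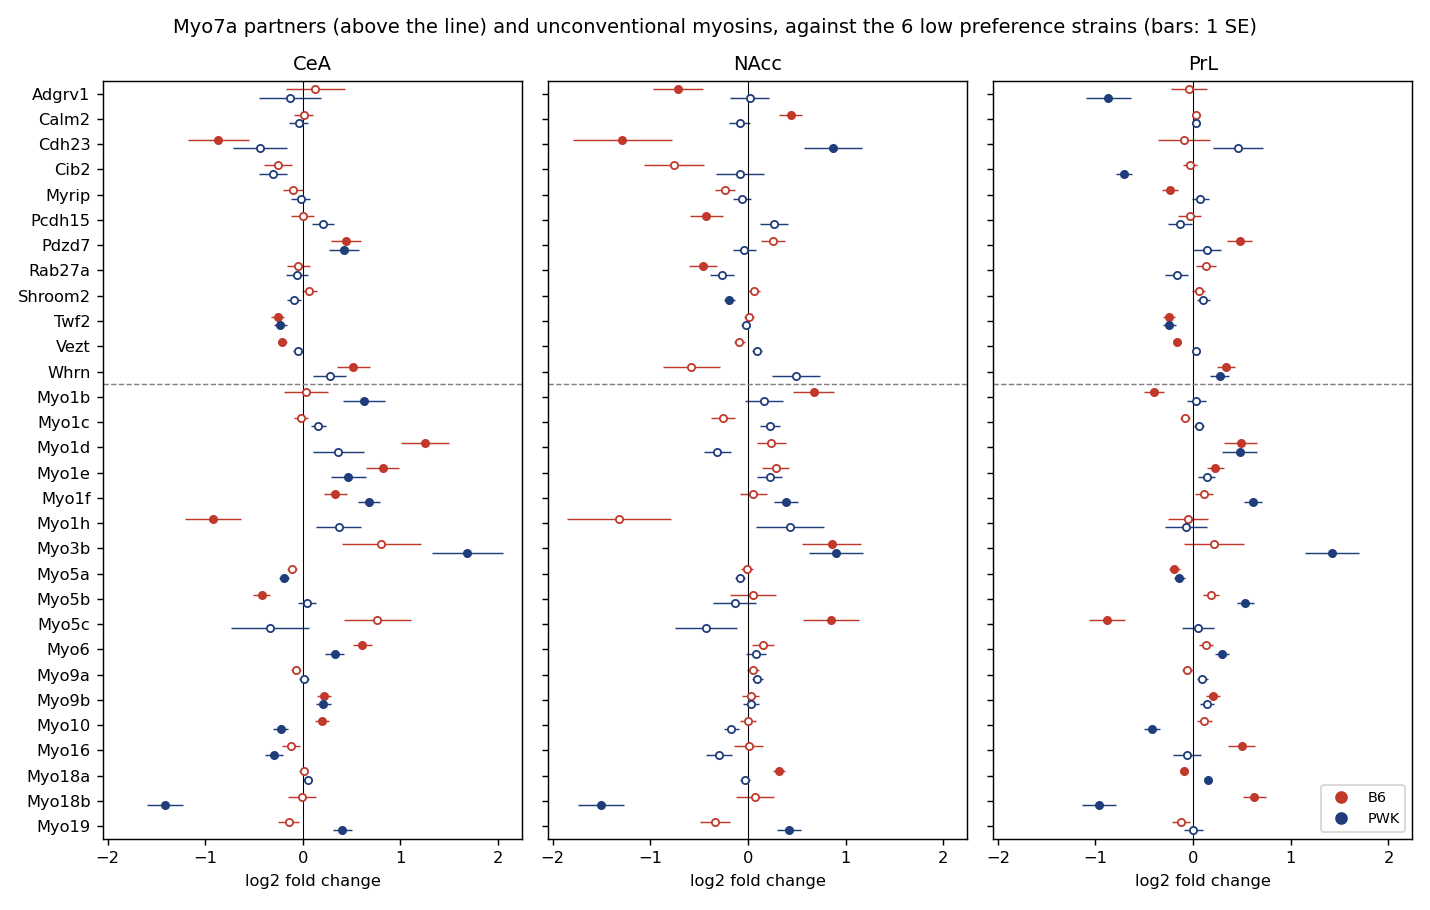
Log2 fold changes (points, bars 1 SE) of the 12 tested partners, above the dashed line, and the 18 tested unconventional myosins, below it, for B6 and PWK against the 6 low preference strains in the 3 regions, with filled points for an adjusted p under 0.05. All points lie between -1.50 and 1.69, where Myo7a, not drawn, was at 3.39 or more.

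Between regions many members of both lists differed, as did most genes. CeA minus NAcc gave 6 partners higher and 2 lower, and 4 myosins higher and 8 lower, beside 32.5% and 35.1% of all genes. CeA minus PrL gave 4 and 4 partners and 7 and 7 myosins, beside 38.8% and 34.6%. NAcc minus PrL gave 6 and 5 partners and 9 and 8 myosins, beside 44.1% and 38.3%. With the mouse as a replicate block each of these counts was the same.

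The genes beside Myo7a on the chromosome were set beside it to see whether the pattern was shared along the stretch. In RefSeq order the 5 tested genes on one side are Aamdc, Rsf1, Clns1a, Aqp11 and Pak1, and those on the other are Capn5, Omp, Acer3, Tsku and Lrrc32. The stretch holds 26 RefSeq genes, 11 of them tested with Myo7a included. In B6, 3 of 10 neighbours were higher and 1 lower in the CeA (22.3% and 18.8% of all genes), 2 and 2 in the NAcc (17.3% and 14.9%), and 1 and 2 in the PrL (18.2% and 19.3%). In PWK the numbers were 1 and 3 (20.1% and 19.1% of all genes), 3 and 0 (20% and 18.7%), and 2 and 3 (23.9% and 23.2%). These counts are of the order of the background. No neighbour other than Omp differed by more than 0.66 in size on the log2 scale in any region.

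Capn5, a calpain protease and the nearest tested gene on one side, was lower in PWK in the CeA (56.4 against 90.8 CPM, log2 difference -0.66, SE 0.188, limma adjusted p = 0.00449) and PrL (79.5 against 102 CPM, -0.39, SE 0.0851, limma adjusted p = 0.000248). In B6 it was lower in the PrL (87.5 CPM, -0.26, SE 0.0844, limma adjusted p = 0.0128). Its direction was thus opposite to that of Myo7a wherever it was called. Pak1, a kinase that acts on actin and the nearest tested gene on the other side, was lower in B6 in the CeA (332 against 415 CPM, -0.30, SE 0.0874, limma adjusted p = 0.00556) and higher in PWK in the PrL (669 against 581 CPM, 0.20, SE 0.0574, limma adjusted p = 0.00362).

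Omp, the olfactory marker protein, lies inside Capn5 and was the neighbour with the largest difference. In PWK it was higher in the CeA, at 1.51 against 0.280 CPM (log2 difference 2.75, SE 0.307, limma adjusted p = 1.27e-09), and in the NAcc, at 1.31 against 0.255 CPM (2.64, SE 0.295, limma adjusted p = 1.66e-09). In the PrL the fit gave 2.10 (SE 0.920, limma adjusted p = 0.062), whereas the means were 1.62 CPM in PWK and 3.10 in the low preference strains. B6 was higher in the CeA, at 0.431 CPM (1.03, SE 0.359, limma adjusted p = 0.0205), and not called in the NAcc (0.15, SE 0.421, limma adjusted p = 0.811) or PrL (1.76, SE 0.955, limma adjusted p = 0.136). Omp and Capn5 overlap, so that reads could be shared between them, and this was not examined.

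The other neighbours differed by less. Aamdc was higher in B6 in all 3 regions (log2 differences of 0.33, 0.29 and 0.21). Lrrc32, which holds latent TGF-beta on the cell surface, was higher in B6 in the CeA (0.49) and NAcc (0.61). Acer3, an alkaline ceramidase, was lower in B6 in the NAcc (-0.53) and PrL (-0.33) and higher in PWK in the NAcc (0.24). Aqp11, an intracellular aquaporin, was higher in PWK in the NAcc (0.56) and PrL (0.41). Clns1a, a chloride channel regulator and splicing cofactor, was lower in PWK in the CeA (-0.18) and PrL (-0.20) and in B6 in the NAcc (-0.15). Rsf1, a chromatin remodelling factor, was lower in PWK in the CeA (-0.15) and PrL (-0.13). Tsku, a secreted inhibitor of growth factor signals, was called in no region for either strain.

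**Figure D4:**
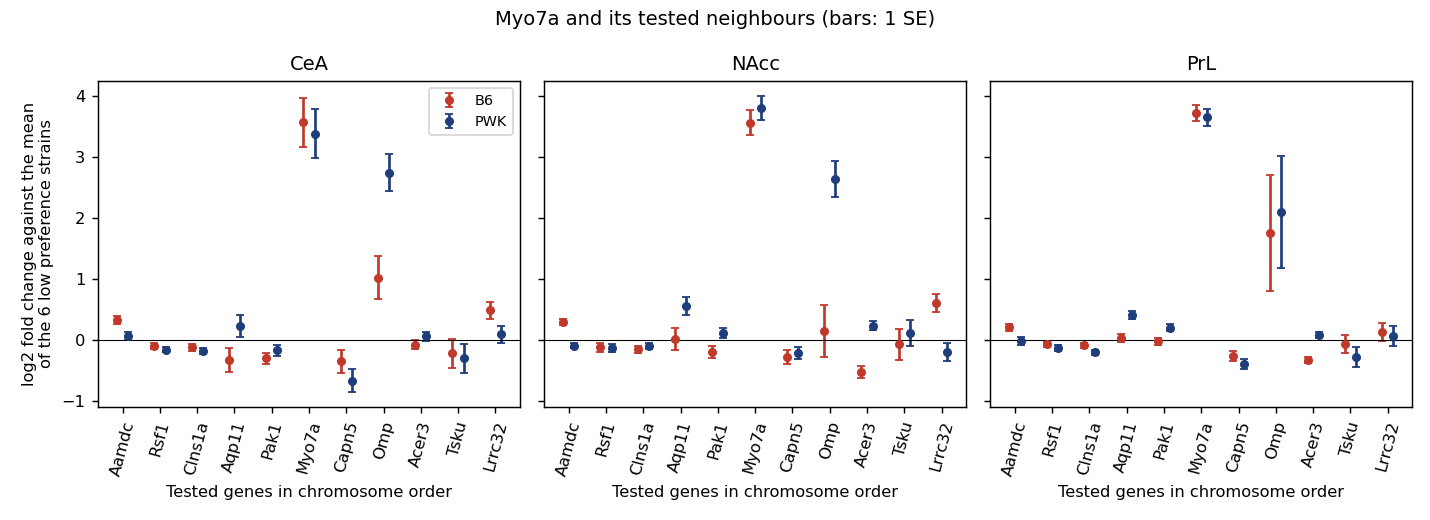
Log2 fold changes (points, bars 1 SE) of Myo7a and the 5 tested genes on each side of it in chromosome order, for B6 and PWK against the 6 low preference strains. Myo7a stands at 3.39 to 3.81 in every panel, Omp reaches 2.75 in PWK, and the other 9 genes stay between -0.66 and 0.61.

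Across the 24 means of strain and region, the pattern of Myo7a was set beside that of the other 14784 genes by Pearson's r, as a description over means that share mice and in which B6 and PWK give 6 of the 24 points. Only 1 gene reached r of 0.9 or more and 9 reached -0.9 or less. The closest was 2610507I01Rik (r = 0.962), with 6.79 CPM in B6 and 6.09 in PWK against 0.573 in the low preference strains in the PrL. Next came Mrpl55, a protein of the mitochondrial ribosome (r = 0.896), and Rec8, a meiotic cohesin subunit (r = 0.890), which had 10.6 CPM in B6 and 10.4 in PWK against 0.399 in the NAcc. Rbm8a, a part of the exon junction complex (r = 0.881), and Tsc2, the tuberin gene (r = 0.879), followed with small differences, Tsc2 having 161 and 186 CPM against 136 in the PrL. With the mean of each region removed, Zfp874a and Atp6v0c, a subunit of the proton pump of lysosomes (r = 0.910 each), entered the 5 highest.

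The genes with the most opposite pattern were mostly annotated pseudogenes. Rps7-ps3 (r = -0.958) had 1.20 CPM in B6 and 0.994 in PWK against 11.7 in the low preference strains in the PrL. Rnps1-ps (r = -0.945) had 0.293 and 0.255 against 16.4 CPM. Zfp457, a zinc finger gene (r = -0.951), Hdac1-ps (r = -0.933) and Gm7224 (r = -0.931) completed the 5, and Bricd5 (r = -0.957) joined them with the region means removed. Levels of pseudogenes are uncertain because their reads can be shared with the parent gene. By Spearman's rho only 1 of these 10 genes of highest and lowest r kept a place among the 5 highest or 5 lowest.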

How the data were processed

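RNA was measured in the CeA, NAcc and PrL of 48 mice. The libraries were poly(A) selected and stranded. Reads were checked (FastQC), trimmed (Trimmomatic) and mapped to GRCm39 by the authors with STAR 2.7.3a. Reads of all strains were mapped to this same reference, that of B6. The part of sequence differences from the reference in the counts of the other strains was not tested. The deposited counts are whole numbers for 240 libraries, and the deposited log2 values are log2 CPM after TMM (edgeR 3.38.1, limma 3.52.2) for 14785 genes in 1 run of each sample, without 1 library that the authors left out. Log2 values recomputed from the counts differed from these by at most 5e-06. Myo7a and the lists (partners and myosins from general knowledge, neighbours from RefSeq order) were chosen with earlier results of these data known.

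With R 4.3.3, limma 3.58.1 and edgeR 4.0.16, voom was fitted in each region with strain, sex and tray. B6 and PWK, each minus the average over the 6 low strains, were adjusted together by the Benjamini-Hochberg method over all genes, sex alone, with a threshold of 0.05. The named genes were Myo7a, every neighbour, list members called with 1 sign in all 3 regions or largest in a region, and the 5 genes of highest and 5 of lowest Pearson's r over the 24 means. Correlations between mice used 100000 permutations within strains (NumPy 2.4.6). The fits were tested on simulated counts. Libraries of 1 mouse share its number in the labels, and the consensus correlation over regions was 0.00772. The p-values for strain, sex and the correlations rest on separate mice within each test. The calls between regions used several libraries of each mouse, without a block in the main fit and with the mouse as a block in the alternative. Alternatives included the edgeR quasi-likelihood test, DESeq2 1.42.0, other size factors, gene filters, sequencing runs and mice left out. A total count of 14942820 or more per library limits the precision of low genes.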

Additional observations from a re-analysis of the deposited data

Results flagged for a closer look

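In 9 of 24 groups of 5 or 6 mice, the highest library lay apart from the rest by Dixon's criterion on CPM. Its nominal rate of 1 group in 20 holds for normally distributed values in separate groups. These groups share mice across regions, and normality was not tested, so the count is a description only. No lowest library did. In the CeA these were PWK mouse 24 at 51.4 CPM, NZO mouse 26 at 14.7 CPM and AJ mouse 21 at 3.11 CPM. Their ependymal sums were 89.2, 47.1 and 16.1 CPM, the highest of each of the 3 groups, and the first 2 were also among the libraries with high Ttr. In the NAcc they were WSB mouse 35 at 9.70 CPM, NOD mouse 47 at 5.80 CPM, NZO mouse 18 at 5.45 CPM and CAST mouse 36 at 3.40 CPM, again each with the highest ependymal sum of its group (82.9, 43.6, 35.8 and 41.5 CPM). In the PrL, WSB mouse 3 at 4.60 CPM had the highest ependymal sum of its group (41.7 CPM), but NZO mouse 18 at 5.88 CPM, the highest PrL library of any low preference strain, did not (4.04 CPM, where the other NZO libraries had 3.23 to 4.45 CPM). NZO mouse 18 thus lay apart in 2 regions in the runs used. In the sequencing run that was not used, the CeA libraries named above had 55.7 (PWK), 12.6 (NZO) and 1.93 CPM (AJ). In the PrL, that run gave 3.98 CPM for NZO mouse 18 and 5.07 CPM for WSB mouse 3. The values of AJ mouse 21 in the CeA and of NZO mouse 18 in the PrL therefore depended on the run. Whether either lay apart in the other run was not tested.

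Myo7a was higher in the NAcc than in the PrL of the same animal in all 6 PWK mice and lower in all 6 NZO mice. The mean log2 difference was 0.29 in PWK and -0.24 in NZO, 0.52 apart. A positive mean was not particular to PWK, with 0.28 in CAST (5 of 6 positive), and 0.39 in NOD and 0.68 in WSB (4 of 6 positive each). It was 0.01 in B6, -0.05 in AJ and -0.18 in S129. The difference between PWK and NZO was not tested.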

How the results depend on the processing

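The log2 difference of B6 from the low preference strains lay between 3.00 and 3.82 in the CeA, 3.40 and 3.87 in the NAcc and 3.66 and 4.03 in the PrL over 12 alternative settings, and that of PWK between 3.13 and 3.87, 3.58 and 4.00, and 3.57 and 3.77. With each B6 or PWK mouse left out in turn, B6 lay between 3.29 and 3.73, 3.54 and 3.62, and 3.67 and 3.76, and PWK between 3.19 and 3.47, 3.72 and 3.88, and 3.62 and 3.71. The sex difference, called under no setting, changed sign in the CeA with the edgeR quasi-likelihood test (-0.12), DESeq2 (-0.11), no tray term (-0.0102), both runs summed (-0.0385) and the choroid plexus and ependymal covariates (-0.27). It did so in the NAcc with no tray term (-0.0009) and with the 3 libraries per strain of lowest choroid plexus score (-0.0809), and in the PrL with the covariates (-0.0154). The cause was not tested. With each strain left out in turn it ran from -0.16 to 0.34 in the CeA, -0.0079 to 0.12 in the NAcc and 0.05 to 0.21 in the PrL. The calls of partners, 23 over 3 regions and 2 contrasts, were 15 with a mean CPM of at least 5, where fewer genes were tested, and 15 with the 3 libraries of lowest choroid plexus score, where fewer libraries were used. Of the 10 genes most like or unlike Myo7a, 1 kept its place by Spearman's rho. With the mouse as a replicate block, the Myo7a differences between regions were 0.23, 0.37 and 0.13, and calls between regions were 27 for partners, 43 for myosins and 24 for neighbours, as without it. The paired libraries changed no call. The replicate block was not applied between strains, because each mouse has 1 library per region. Precision in the low strains is limited by 15 to 440 counts per library. The covariates and the choice of 3 libraries per strain were added after seeing the data.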
